A study of Sus scrofa with 45 samples.

Results

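The genes described here are 6 genes of sugar breakdown and lactate metabolism, HK2, GPI, GAPDH, PGK1, LDHA and LDHB, followed in the blood of miniature pigs fed with and without added sucrose. They were chosen by name, and every probe whose gene name, RefSeq entry or description in the array annotation named 1 of them was taken. This gave 1 probe for each of 5 genes, out of 1874 genes to which a symbol could be given, and GAPDH was not analysed here. In glycolysis a hexokinase traps glucose in the cell as its phosphate, and a chain of enzymes then splits the sugar and gains ATP until pyruvate is left. Mature red cells have no mitochondria and live on this pathway, and neutrophils and dividing lymphocytes also draw much of their ATP from it. Lactate dehydrogenase exchanges pyruvate with lactate and is built from A and B subunits, which LDHA and LDHB encode.

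Blood came from male Clawn miniature pigs that were 12 weeks old when feeding began. The same few pigs of each diet were bled repeatedly, so arrays of different weeks and sample types share animals. Control pigs ate a standard dry feed, the HFCD feed held 15% lard with 2% cholesterol, and the HFCSD feed added 37% sucrose to these. Whole blood of 10, 19 and 27 weeks of feeding was stored and extracted with PAXgene reagents, and white blood cell RNA of 27 weeks was extracted with the LeukoLock kit. There were 45 arrays in 12 groups of 4, except that HFCSD whole blood of 19 weeks and both HFCD and HFCSD whole blood of 27 weeks had 3. Levels are normalized log2 intensities, on which a difference of 1 is a fold of 2, and a spot counted as detected where the scanner software marked it well above background. That mark was held by 35.4% to 53.3% of the spots of an array. Probes bind with unequal strength, so the level of 1 gene is not compared with that of another.

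HK2 encodes the inducible hexokinase of the first step. Its probe was well above background on 2 of 45 arrays, both of white blood cells of control pigs. On the 4 arrays of that group HK2 read 2.12, 3.34, 3.57 and 3.20, with a mean of 3.06 ± 0.65 (SD, n = 4). In the other 11 groups no array was detected, so the groups are not ranked for HK2, and it met the filter in none of the comparisons and has no fold. With the weaker presence flag and with no filter on dim probes it was tested, and passed in white blood cells minus whole blood of control pigs. That pass rests on values mostly below detection, and is not read as a difference.

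GPI encodes the isomerase that turns glucose 6-phosphate into fructose 6-phosphate. In whole blood at 10 weeks GPI read 6.70, 6.98, 5.50 and 7.01 on the control arrays, 6.75, 6.53, 7.18 and 7.11 on the HFCD arrays and 6.33, 7.07, 6.86 and 6.93 on the HFCSD arrays. The diets overlapped there, and 1 control array lay below all others of that week. At 19 weeks GPI read 3.42, 5.40, 5.11 and 5.45 in control, 4.05, 5.47, 5.29 and 4.53 in HFCD and 5.18, 5.74 and 1.71 in HFCSD. At 27 weeks it read 4.45, 5.07, 4.38 and 3.50 in control, 5.19, 4.98 and 4.39 in HFCD and 3.70, 5.59 and 6.20 in HFCSD. In 4 of these 6 groups the lowest array was not above background, and GPI was detected on 3 of 4, 3 of 4 and 2 of 3 arrays at 19 weeks and on 3 of 4, 3 of 3 and 2 of 3 at 27 weeks, in the order control, HFCD, HFCSD. In white blood cells GPI read 6.86, 7.10, 6.71 and 7.37 in control, between 6.72 and 7.44 in HFCD and 6.16, 7.10, 6.88 and 6.76 in HFCSD, and all 12 of these arrays were detected. By mean, GPI ran from 7.13 ± 0.33 (SD, n = 4) in white blood cells of HFCD pigs down to 4.21 ± 2.18 (SD, n = 3) in whole blood of HFCSD pigs at 19 weeks. The 3 white blood cell groups and the 3 whole blood groups of 10 weeks held places 1 to 6, and a step of 1.38 parted them from the 6 later whole blood groups. That was the 1 step of 11 that exceeded the larger SD of the 2 neighbours, and the order on either side of it was inside the spread.

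PGK1 encodes phosphoglycerate kinase, the first enzyme of the chain that returns ATP. In whole blood at 10 weeks PGK1 read 11.28, 11.13, 11.43 and 11.04 in control, 10.86, 11.15, 10.94 and 11.13 in HFCD and between 10.62 and 11.18 in HFCSD. At 19 weeks it read 10.68, 11.16, 12.06 and 11.55 in control, 10.54, 10.53, 10.71 and 9.74 in HFCD and 10.55, 10.46 and 10.62 in HFCSD. The diets overlapped at 10 weeks, while at 19 weeks 3 of 4 control arrays lay above every HFCD and HFCSD array and the other lay among the HFCD arrays. At 27 weeks PGK1 read 11.51, 11.07, 11.53 and 11.35 in control, 11.04, 11.09 and 10.51 in HFCD and 10.71, 10.49 and 10.54 in HFCSD. All 3 HFCSD arrays lay below all 4 control arrays, and the HFCD arrays lay across the gap between them. In white blood cells PGK1 read 11.87, 11.86, 11.50 and 11.30 in control, 11.88, 11.02, 11.39 and 11.11 in HFCD and 10.68, 11.68, 11.54 and 10.62 in HFCSD. Those 3 groups overlapped, and the HFCSD arrays split into a high and a low pair. By mean, PGK1 ran from 11.63 ± 0.28 (SD, n = 4) in white blood cells of control pigs to 10.38 ± 0.43 (SD, n = 4) in whole blood of HFCD pigs at 19 weeks. The control groups took places 1, 2, 3 and 5 of 12, but 0 of the 11 steps between neighbours exceeded the larger SD of the pair.

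LDHA encodes the A subunit, the main form in tissues that release lactate. In whole blood at 10 weeks LDHA read 12.38, 11.72, 12.10 and 12.37 in control, 11.84, 11.73, 11.86 and 12.28 in HFCD and 11.84, 12.05, 12.03 and 12.44 in HFCSD. At 19 weeks it read 11.51, 11.17, 11.30 and 11.10 in control, 11.85, 11.45, 11.68 and 10.49 in HFCD and 11.46, 11.68 and 11.89 in HFCSD. The diets overlapped in both weeks, and 1 HFCD array of 19 weeks lay below the other 44 arrays. At 27 weeks LDHA read 11.39, 11.65, 11.88 and 11.68 in control, 11.63, 11.58 and 11.57 in HFCD and 11.41, 11.34 and 11.38 in HFCSD. The HFCSD arrays there lay close together, below every HFCD array, with 1 control array among them. White blood cell arrays read for LDHA 12.63, 13.10, 13.38 and 12.70 in control, 12.79, 12.39, 12.64 and 12.58 in HFCD and 12.43, 12.83, 12.65 and 12.24 in HFCSD. By mean, LDHA ran from 12.95 ± 0.35 (SD, n = 4) in white blood cells of control pigs to 11.27 ± 0.18 (SD, n = 4) in control whole blood at 19 weeks. The white blood cell groups took the first 3 places and the groups of 10 weeks the next 3, and 4 of the 11 steps exceeded the larger SD of the pair, among them the step of 0.39 below the white blood cells and that of 0.25 below the groups of 10 weeks.

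LDHB encodes the B subunit, the main form in tissues that take lactate up. Over the whole blood groups its means lay between 12.51 ± 0.25 (SD, n = 3) in HFCSD at 27 weeks and 13.08 ± 0.32 (SD, n = 3) in HFCSD at 19 weeks, so HFCSD held both the lowest and the highest place. In white blood cells the means were 13.33 ± 0.38 (SD, n = 4) in control, 13.40 ± 0.08 in HFCD and 13.46 ± 0.10 in HFCSD, the first 3 places of 12. At 27 weeks in whole blood LDHB read 12.95, 12.82, 13.14 and 13.09 in control, 13.24, 12.48 and 13.04 in HFCD and 12.23, 12.55 and 12.73 in HFCSD. All 3 HFCSD arrays lay below all 4 control arrays, and 1 HFCD array lay among the HFCSD arrays. The span of LDHB over the groups was 0.95, against a mean SD within groups of 0.28, and 0 of its 11 steps exceeded the larger SD of the pair. RefSeq lists 2 pig entries with the symbol LDHB, and the probe may not separate them.

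**Figure D1:**
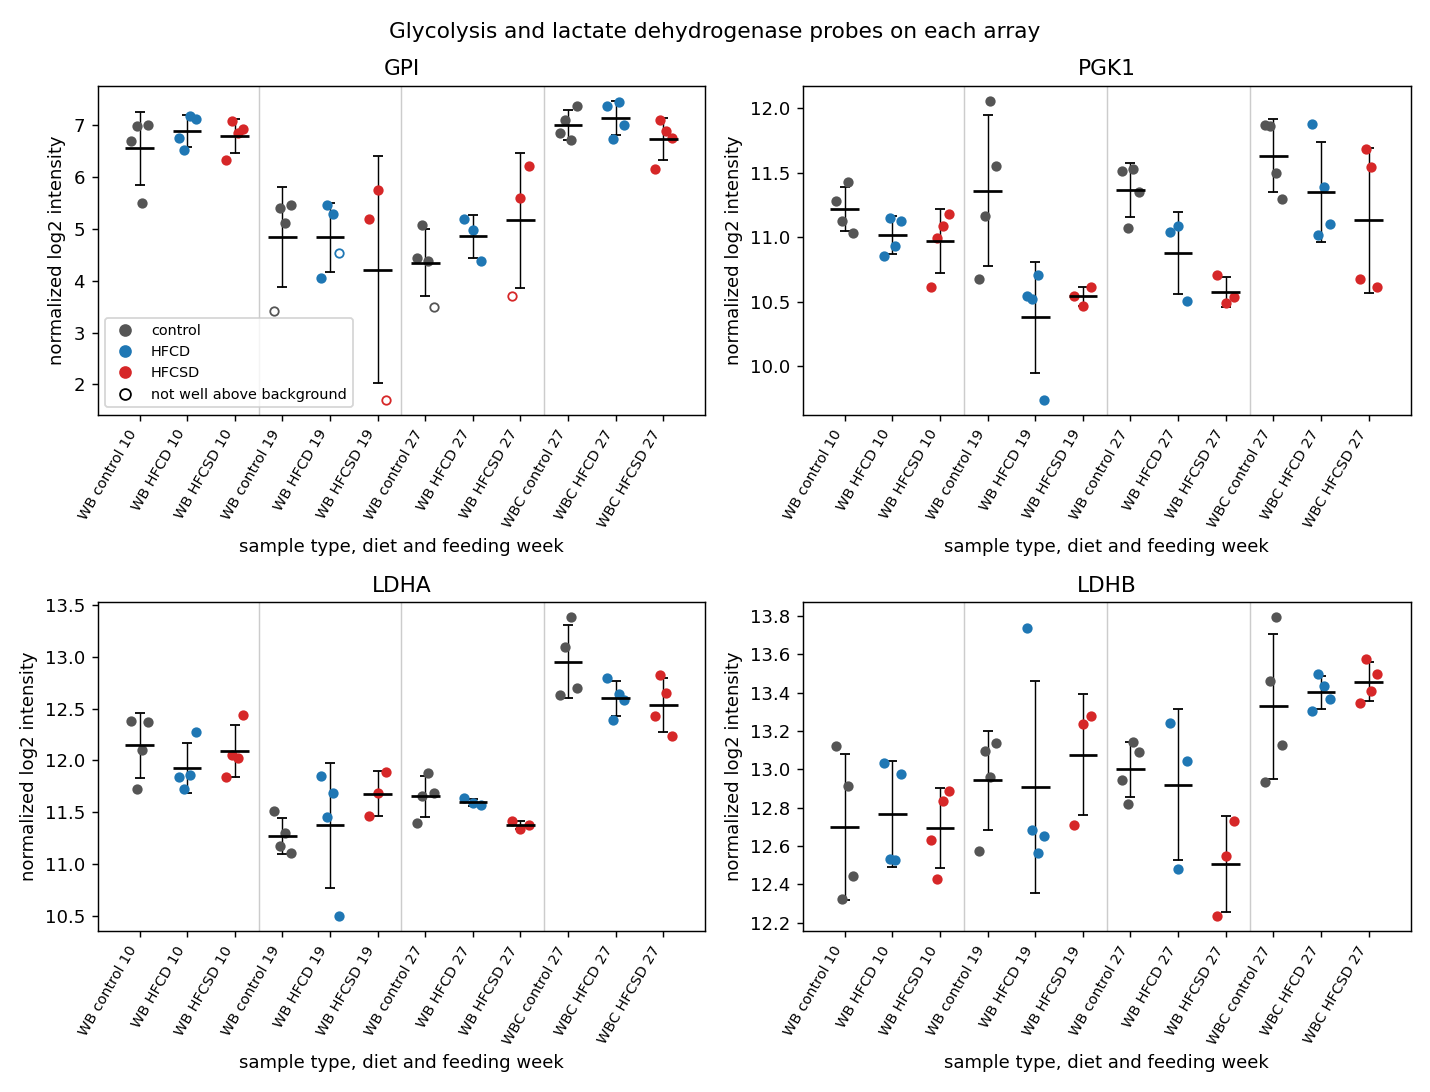
Normalized log2 intensity of the GPI, PGK1, LDHA and LDHB probes on each of the 45 arrays, by sample type, diet and feeding week, with the mean and SD of each group as bars and open points for spots not well above background. The 3 HFCSD arrays of PGK1 in whole blood at 27 weeks, from 10.49 to 10.71, lie below the 4 control arrays, from 11.07 to 11.53, and GPI is near 7 in white blood cells and spread between 1.71 and 6.20 in whole blood after 10 weeks.

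Sucrose is the named difference between HFCSD and HFCD, so these 2 groups ask whether the sugar load shows in the blood level of the genes that break sugar down. At each week and in each sample type, no member passed the adjusted threshold of 0.05 in limma. At 10 weeks in whole blood this was 0 of 4 tested members, beside 0 of 17916 probes (0%), and the differences, HFCSD minus HFCD, were 0.16 for LDHA (95% interval −0.28 to 0.60), −0.07 for LDHB (−0.54 to 0.40), −0.05 for PGK1 (−0.41 to 0.31) and −0.10 for GPI (−0.79 to 0.59). With PGK1 these data therefore leave room for a shift of 0.41 downward or 0.31 upward, and not for a fold of 2 either way. At 19 weeks it was 0 of 3 members, beside 0 of 16277 probes (0%), with 0.31 for LDHA (−0.38 to 0.99), 0.17 for LDHB (−0.52 to 0.86) and 0.16 for PGK1 (−0.58 to 0.90), while GPI was detected on too few arrays to be tested. At that week 1 HFCD array of LDHB, 13.74, stood far above the other 3, which read 12.56 to 12.68, and without it the difference was 0.44, in place of 0.17. Without the HFCD array that read 10.49 for LDHA and 9.74 for PGK1, the difference was 0.01 for LDHA and −0.05 for PGK1, a turned sign.

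At 27 weeks in whole blood the measured differences were negative for LDHB, PGK1 and LDHA and positive for GPI, every interval spanned 0, and none passed the test. The count was 0 of 4 members, beside 2 of 18003 probes (0.0111%), both lower and neither with a gene symbol here. LDHB differed by −0.41 (95% interval −0.98 to 0.15, adjusted p = 0.446), with 3 of 3 HFCSD arrays below the HFCD mean and −0.63 to −0.26 over the arrays left out. PGK1 differed by −0.30 (−0.82 to 0.22, adjusted p = 0.533), with 3 of 3 below that mean and −0.48 to −0.20 over the arrays left out. LDHA differed by −0.22 (−0.67 to 0.23, adjusted p = 0.592), and its 3 HFCSD arrays lay below all 3 HFCD arrays. GPI, on the border of detection, differed by 0.31 (−0.99 to 1.62, adjusted p = 0.810), with −0.21 to 1.04 over the arrays left out and 0.16 to 0.98 over 14 alternatives, so its sign rests on 1 array, the third of HFCSD. The median over all tested probes was −0.16 in this comparison, so that LDHA stood near it. Detected spots made up 38.8% to 39.7% of the HFCSD arrays and 43.6% to 48.9% of the HFCD arrays, without overlap. With that share as a covariate the median was −0.05, and the differences were −0.37 for LDHB, −0.31 for PGK1, −0.29 for LDHA and 0.98 for GPI. On the 1 slide that held both groups the differences were −0.59 for LDHB, −0.29 for PGK1, −0.27 for LDHA and 0.80 for GPI. Over 14 alternatives LDHB lay between −0.49 and −0.16, the latter when each array was scaled by its 75th percentile. Neutrophil markers summed to 38230, 30480 and 33390 in HFCD and to 21730, 26130 and 24470 in HFCSD, without overlap. Their median difference was −0.50, that of monocyte markers −0.46 and that of platelet markers −0.06, with 0 of 3, 0 of 9 and 0 of 6 passed, and the part of these cells was not tested.

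Among the white blood cell arrays 0 of 4 members passed, beside 0 of 18797 probes (0%). GPI differed by −0.41 (95% interval −0.94 to 0.13), with 4 of 4 HFCSD arrays below the HFCD mean, and within the 3 slides the GPI difference was −0.34, −0.30 and −0.26. PGK1 differed by −0.22 (−0.85 to 0.41), LDHA by −0.06 (−0.51 to 0.38) and LDHB by 0.06 (−0.35 to 0.46). Of these 4 intervals of HFCSD minus HFCD in white blood cells that of LDHB is the narrowest, a range of less than a fold of 2 either way. Within slides PGK1 gave 0.30, 0.05 and −0.37, so its sign was not shared by the slides. Neutrophil markers on these arrays summed to 44420 to 59190 in HFCD and to 36840 to 41610 in HFCSD, without overlap. Their median difference was −0.29, that of monocyte markers −0.32 and that of platelet markers 0.64, with 0 of 3, 0 of 11 and 0 of 6 passed. The part of these cells was not tested. In the order 10 weeks, 19 weeks, 27 weeks and white blood cells, 886, 254, 2259 and 408 of all probes had an unadjusted p under 0.05 in limma, and 0 of the members had one. The test that the study's methods name passed 0 probes in each of the 4 after adjustment, and 108, 36, 328 and 22 with its unadjusted threshold and a fold of 2.

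**Figure D2:**
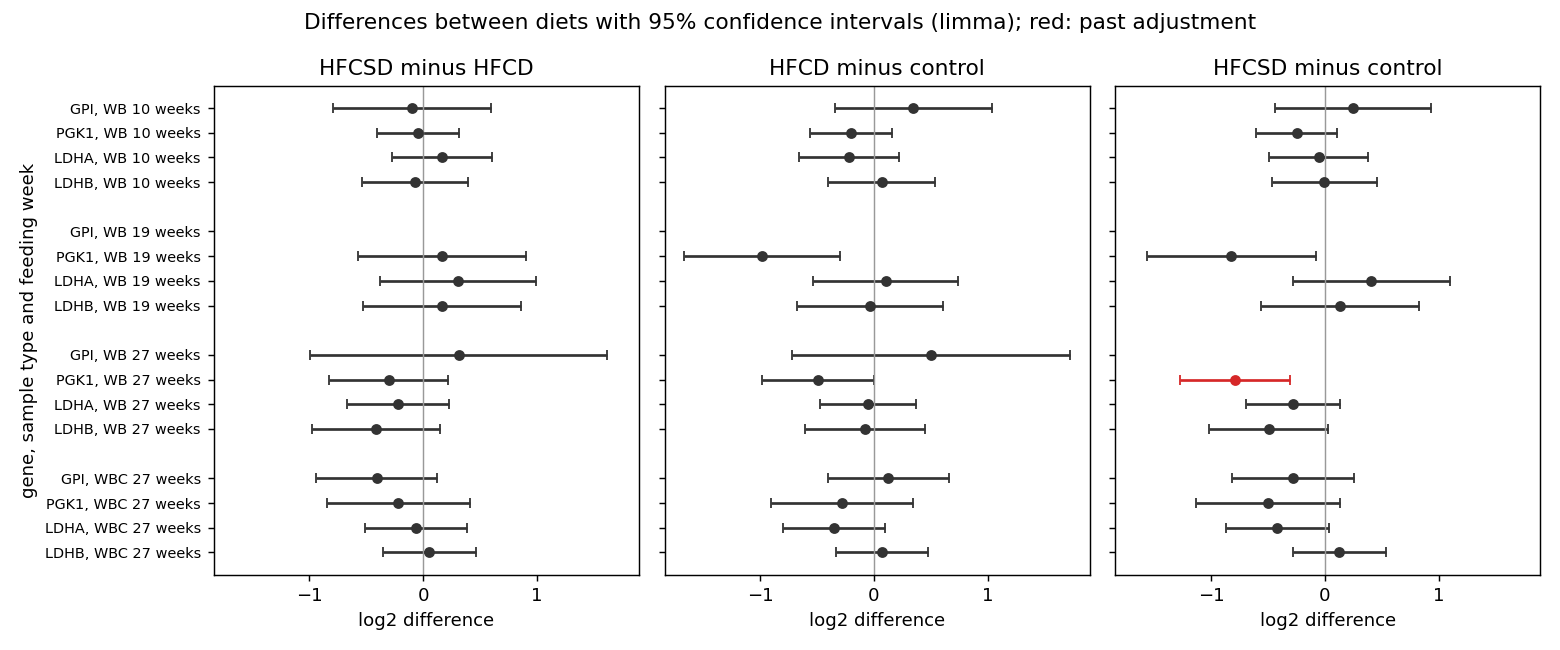
Differences between diets in normalized log2 intensity, with 95% intervals from limma, for each tested member by sample type and feeding week, in 3 panels. Every interval of HFCSD minus HFCD spans 0, and the red point, PGK1 in HFCSD minus control whole blood at 27 weeks (−0.79), is the 1 that passed adjustment.

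Each diet was also set against the control feed, which asks how far lard and cholesterol, with or without sucrose, moved the same genes. Both sets of differences share the control arrays, so they are not independent and are given side by side. For HFCD, 0 of 4 members passed in limma at 10 weeks (0.0281% of all probes), 0 of 3 at 19 weeks (0.0181%), 0 of 4 at 27 weeks (0.0165%) and 0 of 4 in white blood cells (0.0276%). For HFCSD, 0 of 4 passed at 10 weeks (0.0123%), 0 of 3 at 19 weeks (0.0175%) and 0 of 4 in white blood cells (0.0366%), and 1 of 3 passed in whole blood at 27 weeks (10.6%). Among the comparisons with 0 members passed, the members with an unadjusted p under 0.05 were PGK1 in HFCD and PGK1 in HFCSD at 19 weeks, and the methods' test passed 0 members after adjustment. In the same order, for HFCD 1779, 2073, 1008 and 855 probes, and for HFCSD 280, 2042 and 2169, had an unadjusted p under 0.05, and 0 passed the methods' test after adjustment except 3 in HFCD white blood cells.

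PGK1 was lower in HFCSD than in control whole blood at 27 weeks, by a fold of 1.73. The log2 difference was −0.79 (SE 0.22, 95% interval −1.28 to −0.31, adjusted p = 0.0461), and 3 of 3 HFCSD arrays lay below all 4 control arrays. As 1824 of 17133 probes passed there, 1161 higher and 663 lower, with a median over all probes of −0.21, 1 of 3 members is too small a count to set against the share of all probes. The other members tested did not pass, LDHB with −0.49 (−1.01 to 0.03, adjusted p = 0.173) and LDHA with −0.28 (−0.69 to 0.14, adjusted p = 0.315), each with 3 of 3 HFCSD arrays below the control mean. PGK1 differed by −0.59 and −0.91 on the 2 slides that held both groups. Its call was lost in 7 of 14 alternatives (difference −0.86 to −0.76, adjusted p 0.0322 to 0.241 over those with adjustment). Among them was the methods' test with a fold of 2, which a difference of this size cannot meet. The PGK1 call was also lost in each of the 7 fits with 1 array left out (difference −0.89 to −0.74, adjusted p 0.0577 to 0.122). In those 7 fits between 95 and 2835 of all probes passed.

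The share of detected spots and the platelet markers were read beside this PGK1 result. Detected spots made up 38.8% to 39.7% of each HFCSD array and 38.9% to 50.2% of each control array, and with that share as a covariate PGK1 differed by −0.81 (adjusted p = 0.241, the highest of those with adjustment) and 0 of all probes passed. The control array with a share of 38.9% read 11.35 for PGK1, above all 3 HFCSD arrays. That is 1 array, and the part of brightness was not tested beyond the fit with the covariate. Platelet markers, 6 probes of 5 genes that were detected on every array of both groups, summed to 31750, 32860, 40410 and 35820 in control and to 35150, 21260 and 5281 in HFCSD, with the PF4 probe the brightest. Their median difference was −1.26 and 0 of 6 passed. The HFCSD array with the platelet sum of 35150, inside the control range, read 10.71 for PGK1, also below all 4 control arrays. In a bulk sample such as blood, fewer cells of a type and less RNA per cell cannot be told apart, and the part of platelets in the PGK1 difference was not tested.

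PGK1 also had its largest differences from control at 19 weeks, where it did not pass. It differed by −0.98 in HFCD (95% interval −1.67 to −0.30, adjusted p = 0.244, 4 of 4 arrays below the control mean) and by −0.82 in HFCSD (−1.56 to −0.08, adjusted p = 0.386, 3 of 3 below). These rest on control arrays of another scan day, since 3 of the 4 control arrays were scanned on a day of their own. With scan day as a block, which leaves 1 control array to compare with, PGK1 differed by −0.30 in HFCD and −0.14 in HFCSD, and on the 1 slide with both control and HFCD the difference was −0.15. With slide as a fixed block, chosen after seeing the data, the HFCSD difference was 0.06, a turned sign. When all arrays entered 1 fit, the HFCD difference passed (adjusted p = 0.0222, in a range of 0.0222 to 1.00 over the alternatives with adjustment), with 525 of all probes in place of 3. Platelet markers had medians of −1.73 in HFCD and −0.51 in HFCSD at that week, with 0 of 6 passed in each, and their part was not tested.

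The PGK1 difference from control was also negative in the 5 remaining comparisons, and passed in none of them. It was −0.20 in HFCD (95% interval −0.56 to 0.16) and −0.25 in HFCSD (−0.60 to 0.11) at 10 weeks, and −0.49 in HFCD (−0.98 to 0.00) at 27 weeks. For white blood cells it was −0.28 in HFCD (−0.91 to 0.34) and −0.50 in HFCSD (−1.13 to 0.13). Platelet sums of HFCD whole blood lay below all control arrays at 10 weeks, with 16460 to 19670 against 22710 to 36000. They did so at 27 weeks too, with 15860 to 21780 against 31750 to 40410. Platelet sums overlapped control in HFCSD at 10 weeks and in white blood cells of both diets, and their part was not tested. The 8 PGK1 differences from control, the 5 given here and the 3 above, rest on 4 sets of control arrays. Those sets came from the same few control pigs, so the common sign of the differences is not 8 observations. It turned for HFCSD at 19 weeks in that 1 alternative, and the slides did not share it in HFCSD white blood cells, with PGK1 at 0.10, −0.32 and −0.85 within the 3 slides. LDHA differed from control by 0.41 (SE 0.32) in HFCSD at 19 weeks, or 0.17 with scan day as a block, and by −0.42 (−0.87 to 0.03) in HFCSD white blood cells, and passed in neither. Within those 3 slides LDHA gave 0.16, −0.44 and −1.05, so its sign was not shared either. In HFCD white blood cells LDHA differed from control by −0.35 (−0.80 to 0.09) and did not pass, with −0.03, −0.41 and −0.99 within the slides. GPI differed from control by 0.34 in HFCD (−0.35 to 1.03) and 0.25 in HFCSD (−0.44 to 0.93) at 10 weeks, by 0.50 in HFCD (−0.72 to 1.72) at 27 weeks, and by 0.13 (−0.40 to 0.66) and −0.28 (−0.82 to 0.25) in white blood cells. Without the control array of 10 weeks on which GPI was 5.50, the differences of that week were −0.01 and −0.10, a turned sign in each. LDHB differed from control by at most 0.13 in size in each of the comparisons other than HFCSD whole blood at 27 weeks, with intervals inside −0.67 to 0.83. At 19 weeks these LDHB values depended on scan day, which as a block gave 0.34 in HFCD and 0.50 in HFCSD, and on single arrays, from −0.31 to 0.08 in HFCD and 0.01 to 0.32 in HFCSD over the arrays left out.

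A difference between LDHA and LDHB within an array is untouched by a scaling that shifts the whole array, and it compares the transcript signals of the A and B subunits, not the proteins. It is read only between groups, since the probes differ in brightness. In whole blood at 27 weeks LDHA minus LDHB was −1.60, −0.90 and −1.47 on the HFCD arrays and −0.82, −1.21 and −1.36 on the HFCSD arrays, which overlapped. On white blood cell arrays it was −0.51, −1.11, −0.79 and −0.79 on the HFCD arrays and −0.92, −0.75, −0.75 and −1.26 on the HFCSD arrays. By an exact permutation test, two-sided over arrays, HFCSD minus HFCD was 0.23 at 10 weeks (p = 0.257, adjusted p = 0.667), 0.14 at 19 weeks (p = 0.743, adjusted p = 0.743), 0.19 at 27 weeks (p = 0.500, adjusted p = 0.667) and −0.12 in white blood cells (p = 0.486, adjusted p = 0.667). The smallest p that the exact test can give is 0.0286 with 4 against 4 arrays, 0.0571 with 3 against 4 and 0.1 with 3 against 3, and after adjustment over the 4 the smallest possible value is 0.0571. None of the 4 could therefore have passed 0.05, and the differences are given as a description. In white blood cells the control arrays lay between −0.42 and −0.30, above all 8 arrays of the diets, which was not tested.

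**Figure D3:**
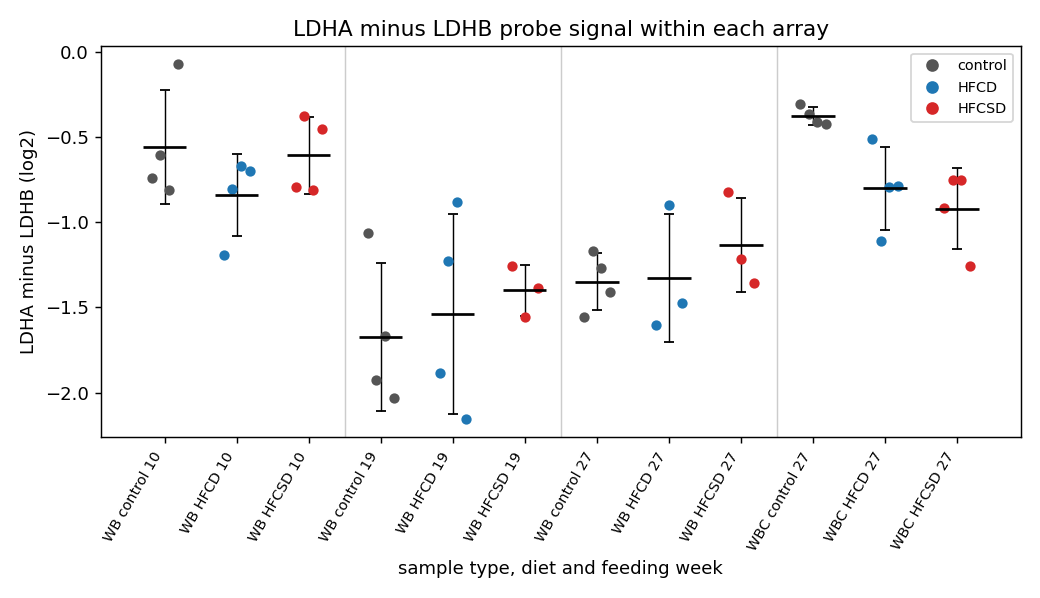
LDHA minus LDHB in normalized log2 intensity within each array, by sample type, diet and feeding week, with the mean and SD of each group as bars. The group means run from −0.38 in white blood cells of control pigs to −1.67 in control whole blood at 19 weeks, and the HFCD and HFCSD arrays overlap in all 4 pairs.

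White blood cells were set against whole blood at 27 weeks within each diet, which asks where in blood the transcripts lie. GPI and LDHA were higher in white blood cells in all 3 diets. GPI rose by 2.66 in control (SE 0.41, adjusted p = 4.19e-05) and 2.28 in HFCD (SE 0.44, fold 4.86, adjusted p = 0.000417), with 4 of 4 white blood cell arrays above all whole blood arrays in each. In HFCSD GPI rose by 1.56 (SE 0.45, adjusted p = 0.00576), with 3 of 4 above all. In control and HFCSD 1 whole blood array was not above background, so no fold is given there. GPI met the filter in these diets through the white blood cell arrays alone, the group where it was high. Its calls there are therefore given as a description. The size for GPI depended on how dim spots were handled, and normexp with an offset of 50 gave 1.11, 1.13 and 0.67 in control, HFCD and HFCSD, past adjustment in each. LDHA rose by 1.30 in control (SE 0.18, fold 2.47, adjusted p = 1.60e-05), 1.00 in HFCD (SE 0.20, adjusted p = 0.000468) and 1.16 in HFCSD (SE 0.20, fold 2.24, adjusted p = 7.98e-05), with 4 of 4 arrays above all whole blood arrays in each diet. LDHB rose by 0.95 in HFCSD (SE 0.21, fold 1.93, adjusted p = 0.000944, 4 of 4 above all). Its differences of 0.33 in control (95% interval −0.08 to 0.74, 2 of 4 above all) and 0.48 in HFCD (0.04 to 0.93, 4 of 4 above all) did not pass. PGK1 passed in none of the 3, with 0.26 (−0.27 to 0.80), 0.47 (−0.10 to 1.05) and 0.55 (−0.02 to 1.13) in control, HFCD and HFCSD.

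The members that passed, 2 of 4 in control, 2 of 4 in HFCD and 3 of 4 in HFCSD, stand beside 45.3%, 47.5% and 58.9% of all probes, so these counts are near the share of all probes. The median over all probes was 0.17, 0.19 and 0.42, and it moved to 0.30, 0.38 and 0.50 when each array was scaled by its 75th percentile. With that scaling LDHB passed in control and HFCD as well (0.54 and 0.79) and PGK1 in HFCD and HFCSD (0.89 and 0.87). The GPI call in HFCSD rested in part on 1 dim array: without the first whole blood HFCSD array, on which GPI was 3.70, the difference was 0.83 (adjusted p = 0.0736, in a range of 0.000808 to 0.0736 over the arrays left out). It was also lost with the share of detected spots as a covariate (1.09, adjusted p = 0.178, in a range of 0.00468 to 0.178 over the alternatives with adjustment) and under both criteria of the methods' test. Markers moved with sample type too. In control, HFCD and HFCSD pigs 9, 6 and 9 of 12 tested T cell probes were higher in white blood cells, a larger share than the 4637 of 19020, 4960 of 19413 and 7328 of 19686 of all probes that were higher. Of the monocyte probes 4 of 12, 2 of 11 and 3 of 11 were higher, and of the neutrophil probes 0, 1 and 1 of 3. The mean monocyte sum was 15990, 16700 and 12310 in whole blood and 32900, 26620 and 22900 in white blood cells, that of T cells 7641, 7267 and 6623 against 11050, 11920 and 12830, and that of neutrophils 30250, 34040 and 24110 against 39110, 51590 and 39650. In control white blood cells the monocyte mean rests on 1 array of 65830, the others having 15900 to 26980. The mean platelet sum was 35210, 18790 and 20560 in whole blood against 56500, 29650 and 33480 in white blood cells. Single white blood cell arrays had platelet sums from 1296 to 80190. The part of these cells in the LDHA and GPI differences was not tested. Sample type, extraction kit and scan day cannot be told apart.

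The change from 10 to 27 weeks in whole blood was read within each diet. GPI fell by 2.20 in control (SE 0.62, adjusted p = 0.0138), with 4 of 4 arrays of 27 weeks below all of 10 weeks. As 1 of those 4 was not above background no fold is given, and with normexp the difference was −0.85. GPI met the filter in control and HFCSD through the arrays of 10 weeks alone, where it was high. The control call is therefore given as a description. In HFCD GPI differed by −2.04 (95% interval −3.42 to −0.66, adjusted p = 0.0717) and in HFCSD by −1.63 (−3.01 to −0.25, adjusted p = 0.117), with 3 of 3 arrays below all of 10 weeks in each, and neither passed. LDHA fell by 0.72 in HFCSD (SE 0.23, fold 1.64, adjusted p = 0.0479), with 3 of 3 arrays below all of 10 weeks. In control LDHA differed by −0.49 (−0.94 to −0.05, adjusted p = 0.102) and in HFCD by −0.33 (−0.81 to 0.15, adjusted p = 0.456). LDHB differed by 0.30 (−0.19 to 0.79), 0.15 (−0.38 to 0.68) and −0.19 (−0.72 to 0.34) in control, HFCD and HFCSD. PGK1 differed by 0.15 (−0.31 to 0.61), −0.14 (−0.64 to 0.36) and −0.39 (−0.89 to 0.11) in that order.

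Thus 1 of 4 members passed in control, 0 of 4 in HFCD and 1 of 4 in HFCSD, beside 20.7%, 5.59% and 10.4% of all probes. In HFCD, 1 member, GPI, and 3864 probes had an unadjusted p under 0.05 in limma, and 154 probes passed the methods' test after adjustment. The GPI call in control was lost without the control array of 27 weeks that read 3.50 (−1.91, adjusted p = 0.0516, in a range of 0.0108 to 0.0516 over the arrays left out), and GPI passed in HFCD in 5 of 13 alternatives (adjusted p 0.00574 to 0.147 over those with adjustment). The LDHA call in HFCSD was lost in 7 of 13 alternatives (adjusted p 0.0362 to 0.171 over those with adjustment). Among them was the methods' test with a fold of 2, which a difference of this size cannot meet. That call was also lost in 6 of the 7 fits with 1 array left out (adjusted p 0.0469 to 0.159). With the replicate number as a block the LDHA difference was −0.60 (adjusted p = 0.171), with 1031 of all probes passed in place of 1709. Week, age and scan day cannot be told apart. T cell markers were lower at 27 weeks in 5 of 11, 3 of 12 and 2 of 11 tested probes in control, HFCD and HFCSD, beside 1461 of 17138, 737 of 18861 and 1106 of 16460 of all probes lower, and their part in these differences was not tested.

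Whether the difference between HFCSD and HFCD itself depended on sample type or week was tested as an interaction in limma. Between white blood cells and whole blood 0 of 4 members passed (0.0293% of all probes), the interaction being 0.47 for LDHB (SE 0.30), −0.72 for GPI (95% interval −2.04 to 0.60), 0.16 for LDHA (−0.43 to 0.75) and 0.08 for PGK1 (−0.73 to 0.90). Between 27 and 10 weeks of whole blood 0 of 4 members passed (0% of all probes), with −0.38 for LDHA (−1.07 to 0.30), −0.34 for LDHB (−1.09 to 0.41), −0.25 for PGK1 (−0.97 to 0.46) and 0.41 for GPI (−1.55 to 2.36). Of all probes 1514 and 179 had an unadjusted p under 0.05 in the former and the latter, and 0 of the members had one. The methods give no test of such a contrast. The intervals for GPI, over 2 units wide, leave its dependence on diet, week and sample type open to shifts of several fold.

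Around the members stand 8 lists of pathway genes, 75 probes of 46 genes, described by their counts. In HFCSD minus HFCD, 0 of 36, 31, 35 and 41 tested list probes passed at 10, 19 and 27 weeks and in white blood cells, and 3, 0, 3 and 1 had an unadjusted p under 0.05 in limma. The list medians were −0.07, 0.02, −0.12 and −0.12, against −0.10, 0.09, −0.16 and −0.00 over all probes. The genes named below had the 2 largest differences of their list in HFCSD minus HFCD whole blood at 27 weeks, and none passed in any of the 4 comparisons. Among the other glycolytic enzymes, 0 of 7 tested probes passed in whole blood at 27 weeks. PFKM, a subunit of phosphofructokinase, differed by −1.17 (95% interval −2.60 to 0.26), −0.73 (−2.55 to 1.08), −1.01 (−2.29 to 0.28) and −2.14 (−4.17 to −0.12, adjusted p = 1.00) in the 4 comparisons. HKDC1, a hexokinase domain protein, differed by 0.60 (−0.33 to 1.53) at 27 weeks in whole blood.

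BPGM makes 2,3-bisphosphoglycerate in red cells, at the point of glycolysis where PGK1 acts. It differed between HFCSD and HFCD by 0.99 (95% interval 0.04 to 1.94, adjusted p = 0.807) at 10 weeks and by 1.60 (0.73 to 2.47, adjusted p = 0.390) at 27 weeks in whole blood, and by −0.12 (−1.14 to 0.90) at 19 weeks and −0.16 (−1.93 to 1.62) in white blood cells. From control, BPGM differed in HFCD whole blood by −0.30 at 10 weeks and by 1.48 at 19 weeks, and passed in neither. Against control at 27 weeks in whole blood BPGM rose by 1.52 in HFCSD (0.71 to 2.32, adjusted p = 0.0312), the 1 of 34 list probes that passed there, beside 10.6% of all probes. That BPGM call was lost with no filter on dim probes, with all arrays in 1 fit, by the methods' test after adjustment and with the share of detected spots as a covariate (1.23). It was also lost without the first or the second control array or any 1 of the 3 HFCSD arrays (1.35 to 1.68). BPGM is also the 1 erythroid marker detected on any array of these groups, so no other marker of red cells was there to set beside it. The share of red cell RNA in that difference was not tested.

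Of the lactate and glucose carriers, 0 of 3 tested probes passed in HFCSD minus HFCD whole blood at 27 weeks. The lactate carrier SLC16A1 differed by −1.30 (95% interval −2.41 to −0.19, adjusted p = 0.393) there and by −0.44 (−1.26 to 0.38) in white blood cells, and the glucose carrier SLC2A1 by 0.40 (−0.44 to 1.23). Of the genes that take pyruvate into mitochondria and oxidize it, 0 of 5 passed, with PDHX, a part of pyruvate dehydrogenase, at −0.84 (−1.54 to −0.14, adjusted p = 0.393) and the pyruvate carrier MPC1 at −0.36 (−0.92 to 0.20). The pentose phosphate list had 0 of 4, with TKT at 0.59 (−0.20 to 1.37) and PGD at −0.49 (−1.06 to 0.08). The list of gluconeogenesis and glycogen had 0 of 8, with the glycogen phosphorylase PYGM at 1.07 (−0.22 to 2.36) and the glycogen synthase GYS1 at 0.65 (−0.01 to 1.31). For fructose entry and the lipogenic response to sugar it was 0 of 5, with the fatty acid synthase FASN at 0.66 (−0.82 to 2.14) and TXNIP, which restrains glucose uptake, at −0.41 (−1.54 to 0.72). The hypoxia list had 0 of 2, with ADM at −0.82 (−1.70 to 0.06) and HIF1A, the oxygen-regulated activator of many glycolytic genes, at −0.71 (−1.84 to 0.42).

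The lists were also counted by sample type. Of 40, 41 and 41 tested list probes, 13, 15 and 19 were higher and 3, 2 and 2 lower in white blood cells of control, HFCD and HFCSD pigs, with medians of 0.48, 0.60 and 0.65 against 0.17, 0.19 and 0.42 over all probes. Of all probes 4637 of 19020, 4960 of 19413 and 7328 of 19686 were higher, and 3981, 4270 and 4258 lower. Like LDHA, the pyruvate carrier MPC1 rose in all 3, by 0.46 (adjusted p = 0.0489), 0.51 (adjusted p = 0.0425) and 0.87 (adjusted p = 0.00114). TKT rose by 1.70, 1.56 and 0.76 and TXNIP by 1.53, 1.39 and 1.20, each passing in the 3 diets. PYGM was lower, by −3.67, −3.81 and −4.48 (adjusted p = 2.25e-05, 3.98e-05 and 4.94e-06), opposite to GPI and LDHA. From 10 to 27 weeks 0 list probes were higher and 5 of 37, 3 of 35 and 3 of 34 lower in control, HFCD and HFCSD, beside 2082, 318 and 603 higher and 1461, 737 and 1106 lower of the 17138, 18861 and 16460 probes tested. There TKT fell by 1.41 in control and 1.40 in HFCD and TXNIP fell by 1.67 in HFCSD.

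Markers of blood cells were read on the same arrays as a check of the labels. White cell and platelet markers were detected in all 12 groups, and the brightest probe was that of CD3D for T cells, LYZ for monocytes and FCGR3A or MMP9 for neutrophils, which does not rank the genes by abundance. The erythroid list had 3 probes, of which BPGM was detected on every array, HBA on no array of 11 of the 12 groups and TFRC on none. Of 19 liver probes 2 to 4 were detected on all arrays of a group, with the TF, HP or APOC3 probe the brightest, while ALB, FGG and TTR were detected on none. Of 11 muscle probes 0 or 1 was detected on all arrays of a group, with the MYLPF or CASQ1 probe the brightest, while MYH2, MYH4 and TNNC2 were detected on none. Platelet markers varied most in white blood cells, where their sum was 2481, 70910, 72410 and 80190 in control, 42580, 1296, 19750 and 54980 in HFCD and 60680, 50420, 13910 and 8904 in HFCSD. The LDHA, LDHB and PGK1 levels on the control array with 2481 were 12.63, 12.93 and 11.87, the lowest of its group for LDHA and LDHB and the highest for PGK1.

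Over the 12 group means, 1287 genes were ranked by how alike their pattern was to that of each member, by Pearson's r, as a description in which the groups share slides, scan days and kits. The 2 patterns nearest to GPI were those of GNAI2, a G protein subunit (r = 0.99), and AP3D1 (r = 0.99). Those nearest to LDHA were SAT1, an enzyme of polyamine turnover (r = 0.98), SDHD, a part of succinate dehydrogenase (r = 0.98), and RIT1 (r = 0.97). LDHB was nearest to HMGB1, a chromatin protein (r = 0.98), PRELID3B (r = 0.98) and EIF4A2, a translation factor (r = 0.97). PGK1 was nearest to SULT1A3 (r = 0.96), MBP (r = 0.95) and TSPO, a protein of the outer mitochondrial membrane (r = 0.95). Over the 9 whole blood groups alone, both of those for GPI and 1 of the 3 for each of LDHA, LDHB and PGK1 were again among the nearest 3. With 75th percentile scaling these were 1 of the 2 for GPI, 3 of 3 for LDHA, 1 of 3 for LDHB and 2 of 3 for PGK1, so most of the neighbours named depend on the groups or the scaling.

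The GPI probe is shown because GPI had the largest difference between sample types and the most arrays at the border of detection among the tested members, so the reading of its level rests on this 1 stretch of 60 bases.
GPI probe: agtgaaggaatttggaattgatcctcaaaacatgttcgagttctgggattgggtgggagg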

How the data were processed

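The authors deposited, for 45 Agilent porcine arrays read in 1 colour, the spot intensity written by Feature Extraction after background subtraction within each array, and a series table of intensity on a linear scale that they had quantile normalized. Here the deposited processed intensity was log2 transformed and then quantile normalized across the 45 arrays, spots marked as outliers were left out, and spots of a probe were averaged. The series table was checked against these values (r from 0.9997 to 0.9998 over the arrays). The depth of an array is its share of spots well above background, 35.4% to 53.3%, and the number of arrays limits the precision.

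A probe was tested if well above background on every usable array of at least 1 compared group, with at least 2 usable arrays per group. Tests were two-sided in limma 3.58.1 (R 4.3.3), with Benjamini-Hochberg adjustment over all tested probes at 0.05. Diets were compared within the 3 diet groups of a sample type and week, sample types over the 27 week groups and weeks over the whole blood groups. LDHA minus LDHB was tested by exact permutation, adjusted over its 4 comparisons (Python 3.11.15, pandas 2.3.3, scipy 1.17.1). Of 43603 probes, 2912 were given a symbol by RefSeq accession, gene name or description. The members and lists were chosen with earlier results of these data known, and some results are not reported here. List genes are named where they passed in HFCSD minus HFCD or were among the largest 2 of their list by absolute difference in whole blood at 27 weeks. The lists were other glycolysis enzymes, 2,3-bisphosphoglycerate and fructose 2,6-bisphosphate, glucose and lactate transport, pyruvate oxidation, pentose phosphate, gluconeogenesis and glycogen, fructose entry and lipogenic response, and hypoxia response, with markers of skeletal muscle, liver, monocytes, T cells, neutrophils, erythroid cells and platelets.

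Replicate numbers may or may not follow a pig. Arrays of different weeks and sample types share pigs, and the main fits treat them as independent. Arrays of the same number were checked for likeness after removal of group means. The HFCSD whole blood arrays of 10 and 27 weeks met the criterion (r from 0.117 to 0.506 over 3 pairs), so the fit with the replicate number as a block stands beside that comparison. Between control and HFCSD whole blood of 10 weeks, which are different pigs, r for the same number ran from −0.074 to 0.487. Such likeness therefore does not show that a number follows a pig. Alternatives were scaling by the 75th percentile, normexp with an offset of 50, the series table, quantiles taken within the fitted arrays, a weaker presence flag, no filter on dim probes, other sets of arrays in a fit, blocks for replicate, slide and scan day, the share of detected spots as a covariate, the methods' test under both its criteria, 89 fits with an array left out and, chosen after seeing the data, slide as a fixed block with values within slides.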

Additional observations from a re-analysis of the deposited data

Results flagged for a closer look

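In a group of 4 arrays, a value was singled out where its gap to the nearest of the others was most of the range, which chance does in about 1 of 20 groups. Of 126 groups 7 had such a value, near the number that chance gives. For the GPI log2 intensity this was the first control array of whole blood at 19 weeks, 3.42 against 5.11 to 5.45 on the others. For LDHB it was the first HFCD array of whole blood at 19 weeks, 13.74 against 12.56 to 12.68. Among the summed marker intensities it was the erythroid sum of the third control array of whole blood at 27 weeks, 85.2 against 37.2 to 43.9, and the T cell sum of the same array, 8796 against 7177 to 7346. It was also the skeletal muscle sum of the control array with replicate number 4 of that week, 171 against 85.1 to 94.5, and the monocyte sum of the HFCD array with that number at 10 weeks, 16960 against 9523 to 10520. In white blood cells it was the platelet sum of the first control array, 2481 against 70910 to 80190.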

How the results depend on the processing

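The count of members passed in limma was 0 in each HFCSD minus HFCD comparison and each interaction under every alternative that gave a value. The 4 permutation tests of LDHA minus LDHB also gave 0, but with an adjusted p that cannot fall below 0.0571 they could give nothing else. A count of 0 does not show that diets are alike, and the intervals in the text are the limit. For HFCD minus control at 19 weeks it was 1 in place of 0 with all arrays in 1 fit. For HFCSD minus control in whole blood at 27 weeks, where PGK1 passed, it was 0 with the weaker presence flag, no filter on dim probes, the replicate block, the share of detected spots as a covariate, slide as a fixed block (chosen after seeing the data) and both criteria of the methods' test. There all probes passed numbered 0 with the covariate, 142 by the methods' test after adjustment and 454 with no filter, in place of 1824. They numbered 1873 with the weaker flag, 1952 with the replicate block, 2419 with slide as a fixed block and 2127 by the methods' test with a fold of 2. For white blood cells minus whole blood it was 4 in HFCD in place of 2 with 75th percentile scaling. In control it was 3 in place of 2 with that scaling, and also with the weaker flag and with no filter, where HK2 was the third. HK2 was not detected on the whole blood arrays compared, so its pass is not read as a difference. In HFCSD it was 4 in place of 3 with that scaling, 2 with the covariate and the adjusted methods' test, and 1 by the methods' test with a fold of 2. For 27 minus 10 weeks it was 0 in control by the adjusted methods' test. In HFCD that count was 1 with 75th percentile scaling, normexp, a fit of just the compared groups, a fit of all arrays and the methods' test with a fold of 2. In HFCSD it was 2 with normexp, and 0 with 75th percentile scaling, the weaker flag, no filter, the replicate block, the covariate and both criteria of the methods' test. The methods' test with a fold of 2 passes no difference smaller than that fold. This fixed its outcome for PGK1 in HFCSD minus control, LDHB in HFCSD white blood cells minus whole blood and LDHA in HFCSD over the weeks. Where the filter was loosened more probes were tested, and the cause of each other change in the count was not tested.

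When 1 array at a time was dropped, the count ranged from 0 to 0 for each of the diet comparisons, which includes HFCSD minus control at 27 weeks, and for the interactions. For LDHA minus LDHB it was also 0 to 0, which the size of that test fixes and which shows no stability. It ranged from 2 to 2, 2 to 3 and 2 to 4 for white blood cells minus whole blood in control, HFCD and HFCSD, and from 0 to 1, 0 to 0 and 0 to 1 for 27 minus 10 weeks in that order. Scaling by the 75th percentile moved the median of all probes in the interaction with sample type from 0.18 to 0.07. LDHA and LDHB have 1 probe each, so a mean over the probes of each gives the same values and was not run apart. What lies near background limits GPI and HK2 most, being detected on 40 and 2 of 45 arrays.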
